A study of Drosophila melanogaster with 3 samples.

Results

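The Cpr genes of Drosophila melanogaster encode the largest family of structural proteins of the fly cuticle, and their open chromatin was described here in the epidermis of the pupal abdomen. Members were the protein-coding genes of the RefSeq table for the dm6 build whose symbol is Cpr followed by a digit. They numbered 70 of 13922 protein-coding genes, and 161 of 34718 peaks were assigned to them. A cluster was a set of 2 or more Cpr genes sharing the digits and the letter of the symbol, which give the cytological band. By that rule 49 genes lay in 12 clusters and 21 were single.

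Accessibility was read by ATAC-seq, which marks DNA that a transposase can reach. All material was of 1 group, genotype WT, with no treatment and no sex given. Each of 3 replicates pooled 50 pupae of 38 to 45 h after puparium formation, from which the abdominal epidermis was kept on the cuticle and the organs were taken out. The values came as 1 peak list for the 3 replicates together, so no value has a replicate error, no difference below was tested, and every comparison is a description of this list.

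Insect cuticle is a layered matrix of chitin fibres and proteins that the epidermis secretes at its apical face. Cpr proteins carry the Rebers and Riddiford consensus, a domain that binds chitin, and different members serve different body regions, layers and stages. Many lie side by side in tandem arrays. At the sampled stage the abdominal epidermis is forming the adult body wall. Open chromatin shows where DNA is accessible and is no measure of transcription.

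The tissue was checked on marker genes. A summit within 500 bp of a gene end was found at 9 of 10 epidermal genes, crb being the exception, but also at 4 of 5 muscle, 3 of 4 hemocyte, 3 of 4 tracheal, 3 of 4 neuronal, 2 of 3 oenocyte and 1 of 4 fat body genes. Over all protein-coding genes the share was 65.6%, and 77.5% over those longer than the median, to which most marker genes belong, so these small lists do not set the epidermis apart. The fat body genes Fbp1, Fbp2 and Yp1 had no peak. The part of these other cells in the Cpr values was not tested. In a bulk sample, fewer open cells and less open chromatin per cell cannot be told apart.

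Peaks lay at or near most Cpr genes. With all genes and a window of 500 bp the share was smaller than among genes in general, but this direction turned under some other choices. It held with a window of 250 bp, with peaks counted by overlap and with only the peaks at or above the median −log10 q, all given below. A gene-end summit, meaning one within 500 bp of either end of the annotated gene, was present at 40 of 70 Cpr genes (57.1%), against a background of 65.6% of all protein-coding genes. A further 12 Cpr genes had only peaks farther off, inside or outside the gene, against a background of 13.1%. The remaining 18 had no assigned peak (25.7%, background 21.3%). Among genes whose ends lay over 1000 bp from those of other genes, the order was the reverse. There 15 of 23 Cpr genes (65.2%) had a gene-end summit, against a background of 46.8%. The 2 sets were unlike, with a median gap of 1550 bp in Cpr genes against 3518 bp. Genes nested in a longer gene, such as Cpr64Aa and Cpr64Ad, could be among them. With a window of 1000 bp the shares were 77.1% and 75.9%. The gene table gives spans without strand, so the start of a gene could not be told from its other end, and exons, introns and UTRs were not separated.

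The gap to other genes was smaller among genes of like length. Cpr genes are short, with a median of 1093.5 bp (457 to 18590 bp) against 2163 bp over all genes, and 33 of the 70 were no longer than 1000 bp, against 19.2% of all genes. Among genes up to the all-gene median length, 26 of 53 Cpr genes (49.1%) had a gene-end summit, against 53.6% of all such genes. Among longer genes it was 14 of 17 (82.4%), against 77.5%. All 18 genes with no peak were short ones, a share of 34.0% of the short Cpr genes beside a background of 33.4%, while 9.23% of all longer genes had none. Within each length class the Cpr share was thus close to the background.

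Clustered and single genes did not differ in that share. A gene-end summit was present at 28 of 49 clustered genes (57.1%) and at 12 of 21 single genes (57.1%). No assigned peak was found at 14 clustered genes (28.6%) and 4 single genes (19.0%). The exact binomial 95% intervals of the gene-end shares were 42.2% to 71.2% for clustered and 34.0% to 78.2% for single genes, and they cover counting error over genes only. By length, 18 of 38 short clustered genes (47.4%) and 8 of 15 short single genes (53.3%) had a gene-end summit, and so did 10 of 11 long clustered and 4 of 6 long single genes. The pairs 50C and 97E had one at all 4 of their genes, and clusters of 3 or more at 24 of 45 (53.3%).

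**Figure D1:**
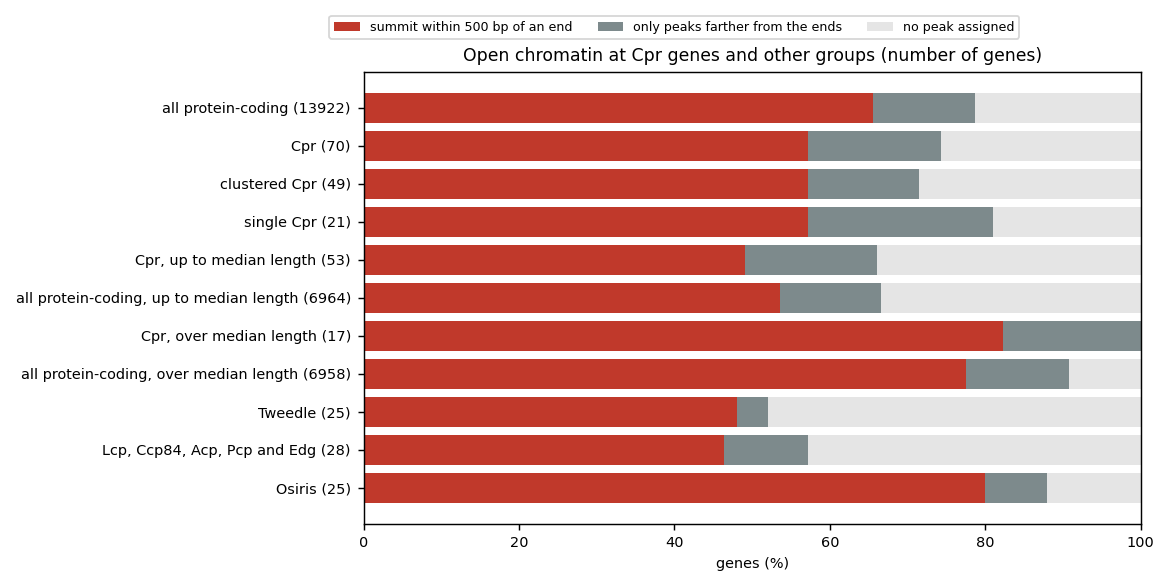
Share of genes (percent, x axis) with a summit within 500 bp of an end (red), with only farther peaks (dark grey) and with no assigned peak (light grey). Rows are Cpr genes by class and length, all protein-coding genes and other cuticle genes grouped by symbol (y axis, with the number of genes). Clustered and single Cpr genes both stand at 57.1% for gene ends, all protein-coding genes at 65.6%.

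The height of the peaks was also alike in both classes taken whole, though not within length classes. Height is the fold enrichment given by the authors' peak caller, the read pileup at the summit over the local background. The highest peak of a gene had a median fold of 2.37 in clustered and 2.43 in single genes, and 2.56 over all genes with a peak. At gene ends the medians were 2.31 and 2.36, against 2.47 over all genes. A peak of fold 3 or more was assigned to 5 of 70 Cpr genes (7.14%), 2 clustered (4.08%) and 3 single (14.3%), against a background of 16.3%. Within length classes the gap was smaller. The median highest fold was 2.32 at short Cpr genes against 2.38 at all short genes, and 2.66 against 2.67 at long ones. A fold of 3 or more was reached by 2 of 53 short Cpr genes (3.77%, background 8.43%) and 3 of 17 long ones (17.6%, background 24.1%). Between the classes the direction turned with length. The median highest fold was 2.36 in short clustered and 2.08 in short single genes, but 2.41 in long clustered and 2.77 in the 6 long single genes.

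Taken peak by peak, the family lay slightly below the whole list. The 161 Cpr peaks had a median fold of 1.95 (interquartile range 1.74 to 2.29, lowest 1.43, highest 3.57), against 2.01 (1.73 to 2.40) over all peaks. At fold 3 or more stood 6 of them (3.73%), against 6.21% of all peaks. Behind the ratios lay a pileup of 82 to 238 reads with a median of 135, over a median background of 65.8 reads. The median width was 328 bp, and 8 peaks were wider than 1000 bp.

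Peaks at the ends of Cpr genes were the highest of the 3 positions. The 54 gene-end peaks had a median fold of 2.13, the 44 interior peaks 1.80 and the 63 peaks outside the genes 1.97. Among gene-end peaks 31 (57.4%) exceeded the median of all 34718 peaks, among interior ones 12 (27.3%) and among outside ones 27 (42.9%), beside a background of 49.8%. By position the backgrounds were 69.1% for all peaks within 500 bp of a protein-coding gene end and 42.6% for all other peaks. Their median folds were 2.28 and 1.93, so higher peaks at gene ends were a trait of the whole list. Taken peak by peak, Cpr gene ends were lower than gene ends in general, but this turned with gene length. The highest gene-end peak had a median fold of 2.20 at short Cpr genes, against 2.34 at all short genes. At long genes the medians were 2.68 for Cpr and 2.55 for all. Of the 54 gene-end summits, 38 lay outside the gene (70.4%, beside 66.9% over all genes) and 16 inside it, and 10 were also within 500 bp of the end of another gene. Summits at both ends were found at 10 Cpr genes, and the share over all genes was not computed.

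The positions were distributed differently in clusters and at single genes. Gene-end peaks made up 39 of 102 peaks of clustered genes (38.2%) and 15 of 59 of single genes (25.4%), and peaks outside the gene 31.4% and 52.5%. Outside peaks lay at a median of 1044.5 bp from the gene in clusters and 2879 bp at single genes, the farthest at 12050 bp. Clustered genes have less sequence of their own, with a median territory of 2850 bp against 5641 bp. A territory is the gene with 500 bp on each side plus the stretch nearer to its ends than to those of any other gene. Interior peaks were lower in clusters, with a median fold of 1.78 and 5 of 31 above the all-peak median, than at single genes, with 2.04 and 7 of 13. That contrast rested on Cpr73D, which held 6 of the 13, and without it the single genes had a median of 1.83 with 3 of 7 above.

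**Figure D2:**
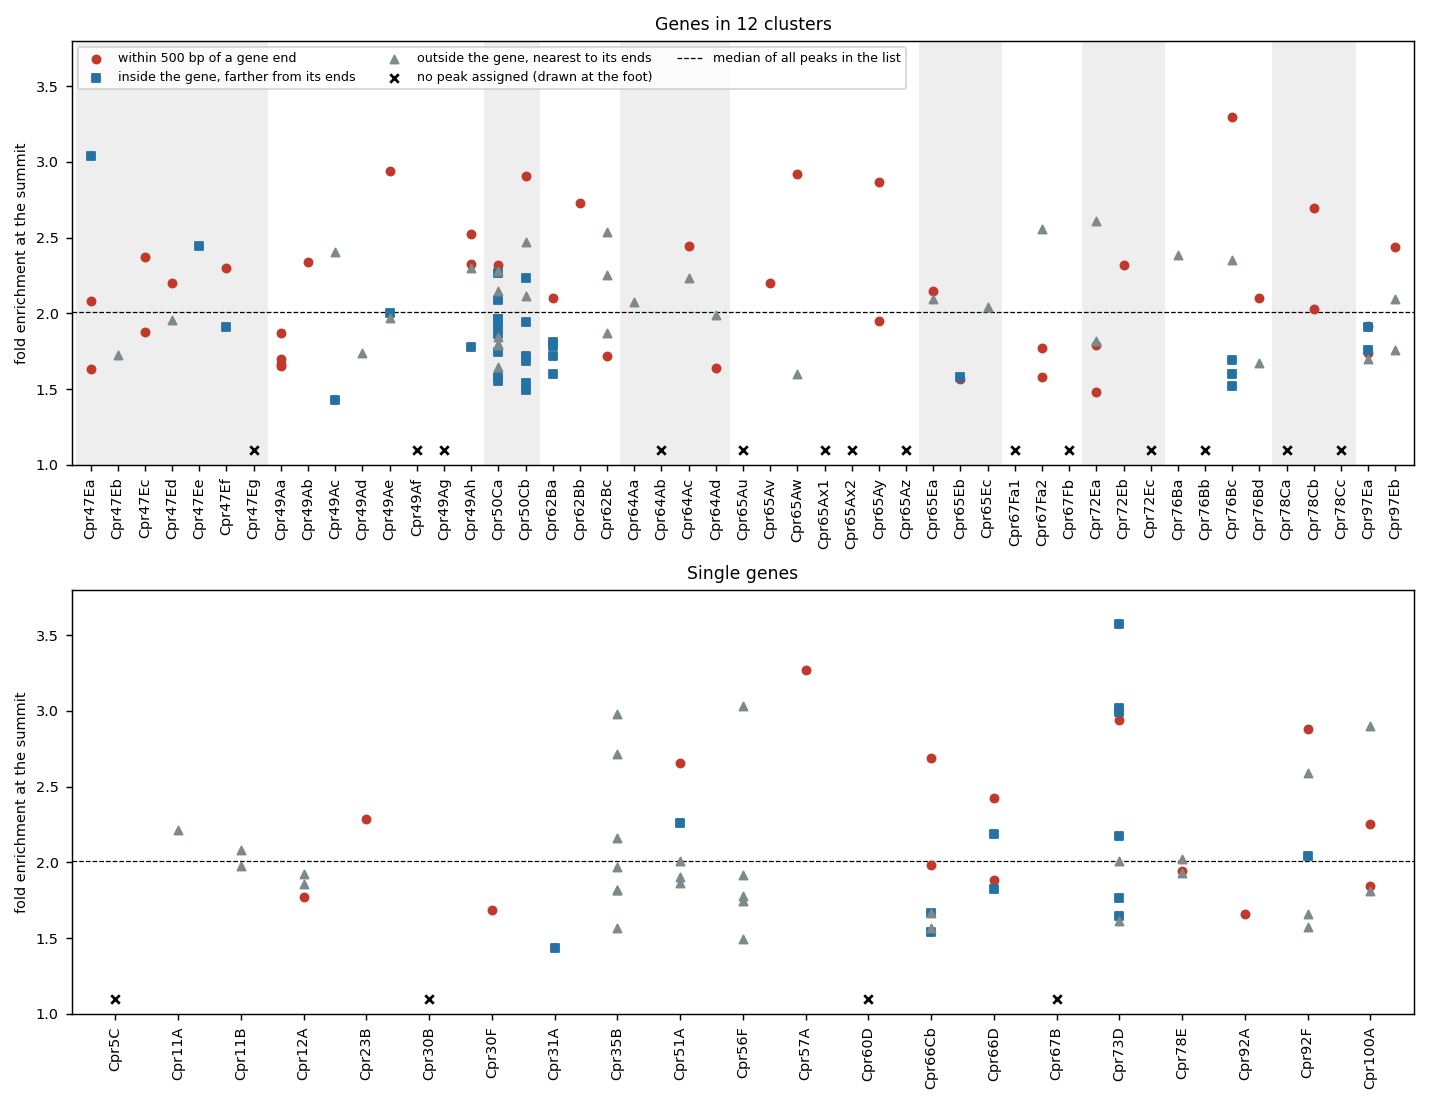
Fold enrichment (y axis, from 1) of every assigned peak for each Cpr gene (x axis), with 49 clustered genes above and 21 single genes below, and symbols for gene-end, interior and outside peaks. The dashed line is the median of all peaks, 2.01, and crosses at the foot mark the 18 genes with no assigned peak and are not values; 6 points reach 3 or more.

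Relative to its territory the family held more summits than genes in general. Cpr genes had 161 summits, or 4.28 per 10 kb of territory (Poisson 95% interval 3.64 to 4.99), against 2.74 over all protein-coding genes. Their territories were also shorter, with a median of 3266 bp against 5006 bp over all genes. Beside genes of like territory, as described below, the gap was smaller, with 161 summits against 136.7. A high density was not particular to the family. It was 4.97 in the Osiris genes and 3.96 in the Lcp, Ccp84, Acp, Pcp and Edg genes described below. The epidermal marker list had 4.76, but Tweedle genes had 2.88. Clustered genes had 102 in 212.6 kb, 4.80 per 10 kb (3.91 to 5.82), and single genes 59 in 163.6 kb, 3.61 per 10 kb (2.75 to 4.65), so the intervals of both classes overlapped. Counted per gene the order was the reverse, 2.08 summits at clustered and 2.81 at single genes, and 3.25 over all genes. Without the long pair Cpr50Ca and Cpr50Cb the density of clustered genes was 4.49, and without Cpr73D that of single genes was 3.60. All 4 Cpr genes on X are single, and without them the single genes had 53 summits at 4.67 per 10 kb, close to the clustered value, so the gap between the classes rested on X.

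Summits increased with territory. Genes were therefore sorted by territory into 10 bins of equal size, and each gene was set beside the mean of its bin. On that basis Cpr genes held 161 summits against a sum of means of 136.7. Clustered genes held 102 against 79.8 and single genes 59 against 56.9. Above the mean of their bin stood 35 of 70 Cpr genes (50.0%), against a background of 43.8%. Spearman's correlation of territory and summits was 0.68 over the 70 Cpr genes and 0.58 over all genes, a description in which neighbouring genes share sequence and peaks. At least 5 summits were held by 11 Cpr genes, 5 clustered and 6 single, against a background of 18% of genes. The long genes Cpr50Ca, Cpr50Cb and Cpr73D together held 34 of the 161.

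**Figure D3:**
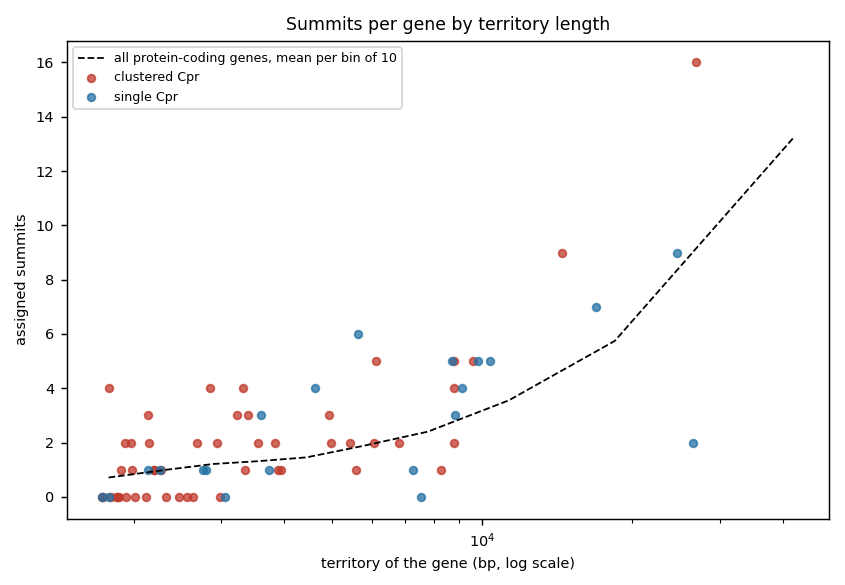
Assigned summits per gene (y axis) against territory (bp, log x axis) for clustered and single Cpr genes, with the mean of all protein-coding genes in each of 10 bins by territory as a dashed line. Summits increase with territory, and 35 of 70 Cpr genes lie above the mean of their bin.

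The highest peak of the family belonged to the single gene Cpr73D on 3L. It lay inside the gene, 5013 bp from its nearest end, at 3L:16943664–16944892, with a fold of 3.57 from a pileup of 207 reads (95% Poisson interval 180 to 237), and 0.80% of all peaks were higher. Cpr73D had 9 peaks in all, among them 3.02, 2.99 and, at a gene end, 2.94. Of the 9, 4 were also assigned to Obp73a, the highest among them, and 5, including those of 2.99 and 2.94, lay inside Ogdh, a gene of the citric acid cycle. Such peaks cannot be told apart from peaks of those genes.

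Next came Cpr76Bc, a member of the 76B cluster, with a gene-end peak of fold 3.30 at 3L:19520599–19521450, with its summit inside the gene 136 bp from the end and with the highest pileup of the family, 238 reads (209 to 270). The only peak of the single gene Cpr57A reached 3.27 at 2R:20549383–20550494, 21 bp from its end (pileup 223, 195 to 254), and it was also assigned to Obp57d, BORCS7 and CG13430. Cpr47Ea had an interior peak of 3.04 at 2R:11252025–11252447 with 176 reads, also within 500 bp of an end of Or47a. Cpr56F had an outside peak of 3.03 at 2R:20292084–20292803 with 193 reads, 502 bp from the gene and so just beyond the gene-end window. The pileup intervals of these 4 overlapped that of Cpr73D.

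The other 5 of the 10 highest genes stood close together. Cpr35B reached 2.98 at 2L:14420321–14421692, 2879 bp outside the gene, in the widest Cpr peak, 1372 bp. Cpr49Ae reached 2.94 at 2R:12401687–12402275 and Cpr65Aw 2.92 at 3L:6141569–6142211, both at gene ends. Cpr50Cb had 2.90 at a gene end, 2R:13794280–13794837, and Cpr100A 2.90 at 3R:30863955–30864533, 3262 bp outside the gene. Just behind them came Cpr92F with 2.88 and Cpr65Ay with 2.87, both at gene ends. Of the 10 genes, 5 were clustered and 5 single, and 5 had their highest peak at a gene end.

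On 2R, cluster 47E held 7 genes with 11 peaks of fold 1.63 to 3.04. A gene-end summit was found at 4 of them, the highest at Cpr47Ec with 2.37. Cpr47Ea had the most summits of the cluster, 3, of which the lower pair lay inside the odorant receptor gene Or47a, and Cpr47Eg had none. Cluster 49A, the largest with 8 genes, had 15 peaks of 1.43 to 2.94. Its highest gene-end peak was that of Cpr49Ae. Cpr49Aa and Cpr49Ah had 4 summits each, those of Cpr49Aa low at 1.65 to 1.87 and those of Cpr49Ah at 1.78 to 2.52. Between them Cpr49Af and Cpr49Ag had no peak and lay in a stretch of 8489 bp without a summit.

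The pair 50C stood apart by its size. Cpr50Ca had 16 peaks, 9 interior, 6 outside and 1 at a gene end with fold 2.32, and Cpr50Cb had 9, of 1.49 to 2.90. The median over the pair was 1.92. With 25 peaks it held more than any other cluster, in a span of 35.3 kb in which every summit was assigned to a Cpr gene. The interior peaks of Cpr50Ca with folds of 1.86, 1.92, 1.74 and 1.56 were also assigned to S-Lap7, which lies in that span.

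On 3L lay 8 of the clusters. In 62B all 3 genes had a gene-end summit, the highest at Cpr62Bb with 2.73, its only peak, while Cpr62Ba had the most, 5 of 1.60 to 2.10. The whole of cluster 64A lies inside CG43367, so its 5 peaks of 1.64 to 2.45 were also assigned to that gene. There Cpr64Ac led with a gene-end peak of 2.45 and 2 summits, and Cpr64Ab had none. In 65E all 3 genes had peaks, none above 2.15, the value at the gene end of Cpr65Ea, which had 2 summits.

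Cluster 65A had the most genes without a peak, 4 of 7. Cpr65Aw led with 2 summits, Cpr65Ay had 2.87 and 1.95, and Cpr65Av 1 peak of 2.20, while Cpr65Au, Cpr65Ax1, Cpr65Ax2 and Cpr65Az had none. Its span holds 11 other genes, among them 9 of the larval cuticle family Lcp65A and the adult cuticle gene Acp65Aa. Of 10 summits in the span, 5 were assigned to Cpr genes and 5 to these others. The highest of the 10 was one of the latter, 3.30 at CG13297 (3L:6154881–6155437), and Acp65Aa held 3, up to 2.65.

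In 67F every peak belonged to Cpr67Fa2, with 1.77 and 1.58 at the gene ends and 2.56 outside, and Cpr67Fa1 and Cpr67Fb had none. In 72E Cpr72Eb had a single peak of 2.32 and Cpr72Ea the most, 4, with its highest of 2.61 outside the gene. Cpr72Ec, a component of the corneal lens, had no peak. In 76B 5 of the 8 peaks were those of Cpr76Bc, and Cpr76Bb had none. In 78C Cpr78Cb had peaks of 2.70 and 2.03, the latter also assigned to its neighbour Edg78E, and Cpr78Ca and Cpr78Cc had none. On 3R the pair 97E had 8 peaks, with 2.44 at the gene end of Cpr97Eb and 1.70 to 1.92 at Cpr97Ea.

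**Figure D4:**
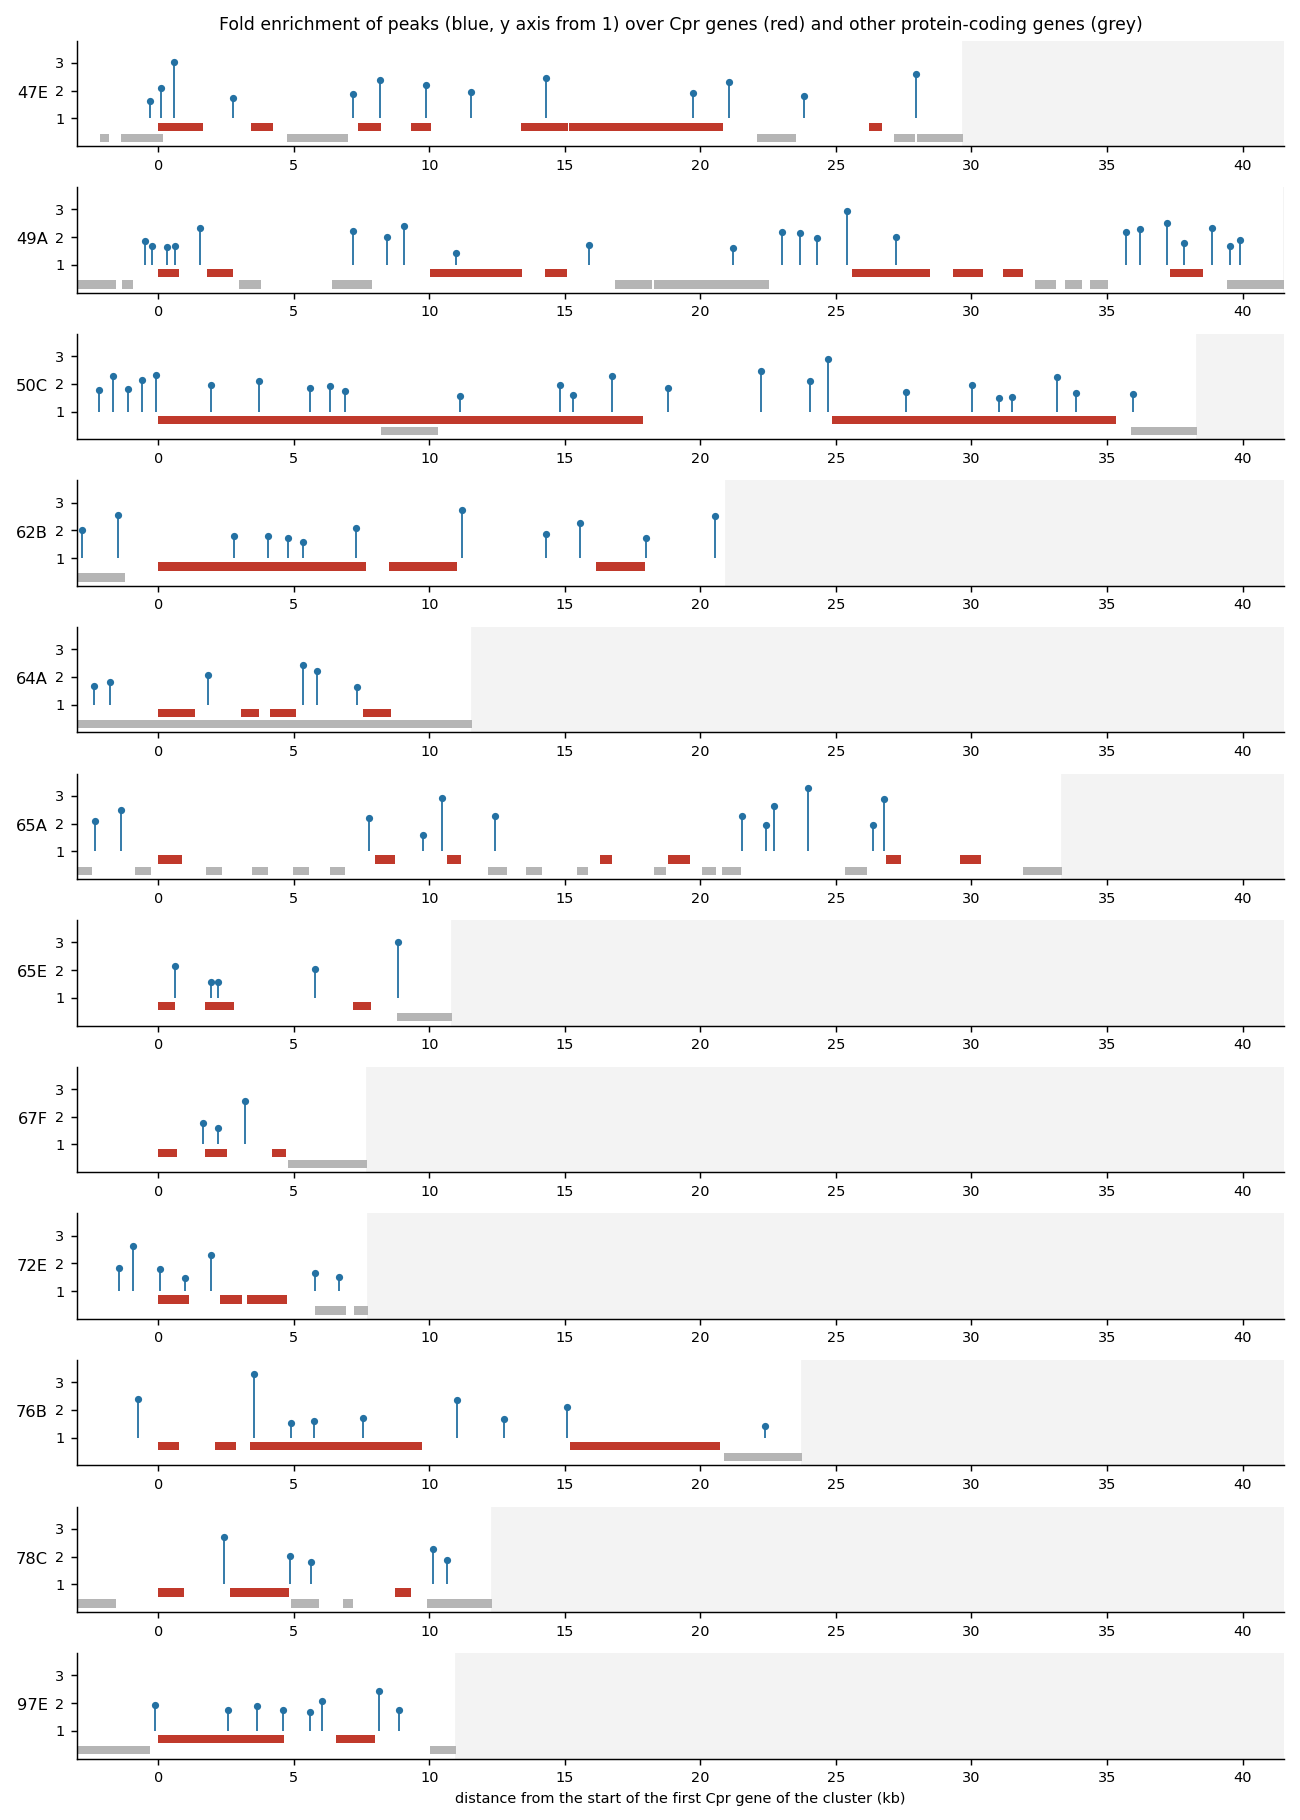
Fold enrichment of every peak (blue, y axis, from 1) against distance from the start of the first Cpr gene (kb, x axis) in the 12 clusters, with Cpr genes in red and other protein-coding genes in grey. The pale area on the right lies beyond the drawn window. Peaks occur all along 50C, to which 25 are assigned, while Cpr65Ax1 and Cpr65Ax2 in 65A lie in a stretch with none.

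Peaks were not found at every member of a cluster. Of the 12 clusters, 4 had a peak at every gene, 50C, 62B, 65E and 97E. Over all clusters 28.6% of genes had no peak, beside backgrounds of 21.3% and, for genes up to the median length, 33.4%. In clusters of 3 or more, the outermost genes had a gene-end summit at 9 of 20 (45.0%) and the inner genes at 15 of 25 (60.0%), with 8 and 6 genes without a peak. The median highest fold was 2.13 in the outermost and 2.41 in the inner genes.

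Clusters were also set beside their surroundings, counting every summit whichever gene it was assigned to. The 12 spans, from the first to the last base of Cpr genes, held 95 summits in 212.8 kb, or 4.46 per 10 kb, against 3.57 in the 50 kb on each side and 2.60 over all arms. The density in the span was above that of its own flanks in 11 of 12 clusters. It was 5.38 against 2.90 in 50C, 5.10 against 2.40 in 65E, 4.67 against 3.30 in 49A and, the other way, 3.22 against 3.40 in 78C. Several spans held 3 to 5 summits, too few for a firm value. The median fold of the span was above that of the flanks in 5 of 12. Most clusters thus had denser summits than their flanks, some only slightly, but mostly not higher ones. Spans of other gene groups were not measured, so whether this is particular to Cpr clusters was not tested.

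**Figure D5:**
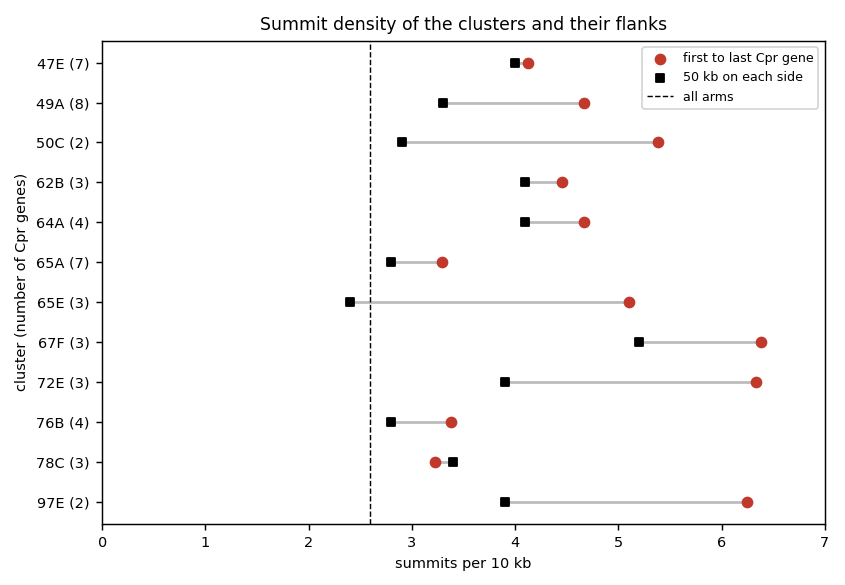
Summits per 10 kb (x axis) between the first and the last Cpr gene (red) and in the 50 kb on each side (black) for each of the 12 clusters (y axis, with the number of Cpr genes), with the value over all arms, 2.60, as a dashed line. The span lies above its flanks in 11 clusters and below them in 78C (3.22 against 3.40).

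The single genes ranged from no peak to the highest of the family. At a gene end, the highest values after Cpr57A and Cpr73D were 2.88 at Cpr92F with 5 peaks, 2.69 at Cpr66Cb with 6, 2.66 at Cpr51A with 5 and 2.43 at Cpr66D, a component of the corneal lens, with 4. The peak of 2.69 also lay within 500 bp of an end of Pex2, and that of 2.66 within 500 bp of an end of CG30197. Lower were Cpr23B with 2.29, Cpr30F with 1.68 and Cpr92A with 1.66, each with 1 peak. Cpr31A had a single interior peak of 1.44.

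Peaks outside the gene were the only ones at several single genes. Cpr35B had 7, of 1.56 to 2.98, and Cpr56F 5, of 1.49 to 3.03. On X, Cpr11A had 1 of 2.22 at 3597 bp, and Cpr11B reached 2.08 at 6092 bp, in a pair of peaks that both lay inside hwt. At other single genes the highest peak lay outside the gene while a lower one lay at an end. Cpr12A had 1.92 and 1.86 outside and 1.77 at an end, and Cpr78E on 3L had 2.02 and 1.93 outside and 1.94 at an end. Cpr100A on 3R had 2.90 and 1.81 outside and 2.26 and 1.85 at the ends. An outside peak was given to the Cpr gene only because that gene's ends were nearest.

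By arm the numbers of Cpr genes were small. On X, 1 of 4 had a gene-end summit and the density was 1.20 per 10 kb, beside 64.0% and 2.44 for all genes of X. On 2L it was 2 of 5 and 3.73, beside 62.4% and 2.91, and on 3R 5 of 5 and 5.77, beside 66.0% and 2.76. The arms with most members had 12 of 21 and 5.60 on 2R, beside 67.3% and 2.76, and 20 of 35 and 4.13 on 3L, beside 67.1% and 2.87.

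The genes without a peak were Cpr47Eg, Cpr49Af, Cpr49Ag, Cpr64Ab, Cpr65Au, Cpr65Ax1, Cpr65Ax2, Cpr65Az, Cpr67Fa1, Cpr67Fb, Cpr72Ec, Cpr76Bb, Cpr78Ca and Cpr78Cc in clusters, and Cpr5C, Cpr30B, Cpr60D and Cpr67B among single genes. They were 457 to 1447 bp long with a median of 751 bp. The nearest summit lay 662 to 10548 bp from a gene end, with a median of 1319 bp and 6 genes within 1000 bp. The farthest was that of Cpr5C, which sat with 5 other genes in a stretch of 28989 bp without a summit. The median gap between neighbouring summits of the list was 1685 bp, and 1.38% of gaps were longer than that stretch. Absence from the list says that no peak passed the caller, not that the chromatin was closed. Cpr65Ax1 and Cpr65Ax2, like Cpr67Fa1 and Cpr67Fa2, are named as copies of each other, and their values are uncertain because the treatment of reads that map to several places is not given in the sources used here.

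Several genes lay near the 500 bp limit of the gene-end window. Just inside were summits of Cpr65Ay at 467 bp and Cpr49Aa at 496 bp. Just outside, after Cpr56F at 502 bp, came Cpr65Eb at 503 bp, Cpr64Aa at 512 bp, Cpr49Ah at 516 bp, Cpr97Eb at 532 bp, Cpr66Cb at 540 bp and Cpr31A at 541 bp. A window of 250 bp held a summit at 47.1% of Cpr genes (clustered 49.0%, single 42.9%), beside a background of 52.2%. When a peak counted by any overlap with 500 bp around an end, 65.7% of Cpr genes had one, against 72.1%.

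Other cuticle genes, grouped by symbol, did not all resemble the genes named Cpr. Protein sequences were not compared, so groups by symbol need not be separate protein families. A gene-end summit was present at 12 of 25 Tweedle genes (48.0%), which encode cuticle proteins without the Cpr consensus, and at 13 of 28 genes named Lcp, Ccp84, Acp, Pcp or Edg (46.4%), with 12 genes without a peak in each list. These genes are mostly short, with medians of 1088 and 710 bp. The backgrounds for genes up to the median length were 53.6% with a gene-end summit and 33.4% without a peak. The shares without a peak in the lists were 48.0% and 42.9%, beside 34.0% of short Cpr genes. The Osiris genes, a tandem family of insect membrane proteins expressed in cuticle-forming cells, had a gene-end summit at 20 of 25 (80.0%). They too are mostly short, with a median of 1611 bp, but some, such as Osi24 and Osi17, exceed the all-gene median length. The 80.0% covers both lengths, beside backgrounds of 53.6% for genes up to that length and 77.5% for longer ones. The median highest fold was 2.03, 2.15 and 2.16 in these lists, and 2.38 in Cpr genes. None of these differences was tested.

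Genes for the making and ordering of chitin are longer, with a median of 5297.5 bp. A gene-end summit was found at 15 of 18 (83.3%), all but Cda9, Cht5 and Idgf6, near the background of 77.5% for genes over the median length. The median highest fold was 2.80, beside 2.67 for such genes. A fold of 3 or more was reached by 5 of the 18 (27.8%, background 24.1%), with 3.54 at the chitin deacetylase gene serp, 3.37 at knk, needed for chitin organisation, and 3.23 at reb. These counts rest on 1 list and on 18 genes chosen by name.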

How the data were processed

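ATAC-seq of 3 replicates of 1 group was used as 1 merged peak list. Reads were handled with BWA, SAMtools, Picard and MACS2 on the dm6 build, per the submitters' processing notes. The sources used here state no versions, settings, duplicate handling or way of merging. Each deposited peak has a fold enrichment, the ratio of pileup to local background, with a −log10 p and a −log10 q for its summit. The deposited score repeats the −log10 q for display and was not used. The deposited summit offset, in bp from the peak start, gave each position. Replicate depth is unknown.

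Whole-number pileups were recovered from fold and −log10 p for all 34718 peaks, within 0.002 on the −log10 scale, the largest residual being 0.00014 and the smallest of another whole number 0.0124. The background had a floor of 57.2 reads, at 27.4% of peaks, where fold follows pileup alone. Exact Poisson and binomial 95% intervals cover counting error only. The recovery and the assignment were tested on simulated data.

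Summits were assigned to protein-coding genes of the RefSeq table for Release 6 (coordinates 1-based) when inside the gene, within 500 bp of an end, or nearer to its ends than to those of any other gene. One summit may count for several genes. No summit counted for 2 Cpr genes, and 31 of the 161 also counted for a gene outside the family. Python 3.11.15 with numpy 2.4.6, scipy 1.17.1 and pandas 2.3.3 was used. Start sites, promoter motifs and protein features were planned and not run, since the table gives spans only. Of the symbols starting with Acp only Acp1 and Acp65Aa were counted as cuticle genes, because accessory gland genes share the prefix. Named genes were the 10 of highest fold, the leading members of each cluster of 3 or more, every single gene and every gene without a peak. CG13297, Cpr92F and Cpr65Ay beside the 10 highest, and the genes at the window edge, were named after their values were seen. The members and lists were chosen with earlier results of these data known. Alternatives changed the window, the peaks, the assignment and the cluster rule.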

Additional observations from a re-analysis of the deposited data

How the results depend on the processing

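The 9 quantities of the report were recomputed under the alternatives, and of 90 values 79 stayed within their interval or within 1.5 times their count. With a window of 1000 bp the gene-end share was 77.1% of Cpr and 77.6% of clustered genes (single 76.2%, background 75.9%). With only the peaks at or above the median −log10 q it was 40.0% and 40.8% (single 38.1%, background 52.5%), with 65 peaks, 30 genes without a peak (background 34.8%) and 1.98 and 1.41 summits per 10 kb at clustered and single genes. With genes whose ends lay over 1000 bp from those of other genes there were 67 peaks and 4 genes without one. The alternatives that left out Cpr50Ca, Cpr50Cb and Cpr73D, or the 4 genes on X, were chosen after seeing the data. Without Cpr50Ca, Cpr50Cb and Cpr73D the densities were 4.49 at clustered and 3.60 at single genes. Without the 4 genes on X that of single genes was 4.67, which removed most of the gap to the 4.80 of clustered genes. Clusters by distance were the same as clusters by symbol. No paired analysis was possible because all replicates came as 1 merged list, and for the same reason no replicate could be left out. The shares of genes with a start within 500 bp of a summit were not run. Depth limits the low peaks, where the list holds only summits that passed the caller.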
